A study of Mus musculus with 8 samples.

Results

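Collagen genes of the mouse left ventricle (LV) were followed here, that is, the genes of the alpha chains that build the collagen proteins. They were taken from the count table by their symbol (Col, a type number, a, and a chain number). 44 of the 46040 genes in the table carry such a symbol, and 34 of them had at least 1 CPM (a count scaled to the size of its library) in 2 or more of the 8 libraries. These 34 are described below, among 13542 genes that passed the same filter. The other 10 had at most 8 counts in any library. They were *Col10a1*, *Col11a1*, *Col17a1*, *Col19a1*, *Col24a1*, *Col25a1*, *Col2a1*, *Col6a4*, *Col6a5* and *Col9a1*, of which *Col9a1* and *Col19a1* had no count at all. Nearest to the filter were *Col9a2*, *Col9a3* and *Col13a1*, whose second-highest library lay at a CPM of 1.07, 1.13 and 1.48, and, on the other side, *Col11a1*, *Col25a1* and *Col6a5* at 0.574, 0.410 and 0.296.

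The libraries are RNA sequencing of the LVs of male C57BL/6 mice, 5 to 7 months old, on day 14 of a subcutaneous infusion of angiotensin II (angII, 0.1 mg/kg/h), which raises blood pressure and induces LV hypertrophy (LVH). VEGFR-1 TK-/- mice, whose VEGFR-1 (gene *Flt1*) lacks its tyrosine kinase domain in all cells, were compared with littermate controls, with 4 libraries per group. All libraries come from mice that received angII, and uninfused hearts are not analysed here. By the paper, tissue was taken from mice that survived the infusion, and fewer VEGFR-1 TK-/- than control mice did. The labels contradict each other: the genotype tags and library names of each library give one genotype and its title the other. The tags name the groups below, control-tagged and VEGFR-1 TK-/--tagged (TK-/--tagged for short), fold changes set TK-/--tagged against control-tagged libraries, and every sign reverses if the titles are right. *Flt1* read 56.9 to 84.3 normalized CPM in the control-tagged and 143.5 to 169.6 in the TK-/--tagged libraries (log2 fold change 1.19, FDR 0.00808, edgeR quasi-likelihood), but a count over the whole gene is no check of a deletion of part of it. Library names refer to cardiomyocytes, whereas the tissue label is LV. Fibroblast and endothelial genes were present in every library, for example *Pdgfra* at 23.1 to 40.4 and *Pecam1* at 228 to 365 normalized CPM.

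A collagen molecule is a rope of 3 alpha chains, in which glycine opens each Gly-X-Y triplet because no larger residue fits the core of the helix. Fibrillar collagens (types I, II, III, V, XI, XXIV and XXVII) form the cross-linked fibrils that bear tension, and types I and III make up most of the collagen of the heart's interstitium, where fibroblasts secrete them. Collagen IV forms the sheet-like network of basement membranes around cardiomyocytes and capillaries, with interruptions in its helix that make it flexible, and collagen VIII forms a network of short chains in vessel walls. Collagen VI makes beaded filaments next to basement membranes, types XV and XVIII (multiplexins) carry sugar chains and anchor basement membranes to the matrix, and the fibril-associated collagens decorate the surface of fibrils.

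The coding sequences differ between the fibrillar chains and those of collagen IV. A run is counted here from 3 triplets on. In the annotation GENCODE M21, the longest uninterrupted run of glycine triplets was 337 to 344 triplets in the fibrillar chains other than *Col24a1* (216) and *Col27a1* (217), whereas the 6 chains of collagen IV had 23 to 27 separate runs, the longest of 39 to 66 triplets. *Col6a1* and *Col6a2* both had a longest run of 87 triplets, and *Col8a1* and *Col8a2* of 60 and 59. *Col26a1*, of a type that belongs to none of the large classes, had 23. Many separate runs were not particular to networks. *Col7a1* of anchoring fibrils had 21, the longest of 75 triplets, and the fibril-associated *Col16a1* had 23, the longest of 52. Below, 15 codons are written 5′ to 3′ from codon 198 of *Col1a1*, codon 194 of *Col3a1* and codon 154 of *Col4a1*. Capitals mark the glycine codons that open triplets of the run in *Col1a1* and *Col3a1*, and every glycine codon in the *Col4a1* stretch. The stretches were chosen because the capitals return after each 2 codons in the fibrillar chains. At the end of the *Col4a1* stretch, where the longest run of triplets of that gene ends, they return after 3 codons.
Col1a1: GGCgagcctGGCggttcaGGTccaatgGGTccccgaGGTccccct
Col3a1: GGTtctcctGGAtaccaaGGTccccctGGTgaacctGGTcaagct
Col4a1: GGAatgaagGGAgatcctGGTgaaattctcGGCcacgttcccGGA

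Several members are neighbours in the genome (GRCm38). *Col4a1* and *Col4a2* lie head to head on chromosome 8 and are transcribed outwards from a common start, where their first exons share 22 bases on opposite strands (chr8:11312805-11312826, written on the plus strand). *Col4a4* and *Col4a3* are arranged in the same way on chromosome 1, with 71 bases between their starts (chr1:82586850-82586920, plus strand). *Col4a6* and *Col4a5* lie head to head on chromosome X, 1308 bases apart. The sequences of the closer pairs are given because the levels of both partners are set side by side further on.
Col4a1/Col4a2: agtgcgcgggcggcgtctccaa
Col4a3/Col4a4: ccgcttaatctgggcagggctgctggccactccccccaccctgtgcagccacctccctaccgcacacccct
*Col3a1* and *Col5a2* lie tail to tail on chromosome 1, 24614 bases apart, and *Col6a2* and *Col6a1* in tandem on chromosome 10, 85161 bases apart. Strand was not stated for the counting, so that reads in exons that overlap an antisense gene cannot be assigned with certainty. Among the 34 genes this touches 563 exon bases of *Col4a3*, 234 of *Col9a3*, 212 of *Col5a1*, 65 of *Col4a2*, 63 of *Col6a6* and 14 to 22 of *Col4a1*, *Col22a1* and *Col15a1*.

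Levels are compared between genes as normalized CPM (counts scaled to the TMM-adjusted library size) per kb of transcript. Chains of the basement membrane led the order. *Col4a1* had a mean over the 8 libraries of 182.8 ± 52.6 per kb (SD, n = 8) and *Col4a2* 156.3 ± 38.7. *Col3a1* followed at 94.7 ± 39.1, *Col1a1* at 62.1 ± 22.0 and *Col1a2* at 54.5 ± 19.2. Each of *Col4a1*, *Col4a2*, *Col3a1* and *Col1a1* was above the next gene in 8 of 8 libraries. *Col1a2* could not be ordered against *Col6a1* (49.9 ± 12.7), which it exceeded in 4 of 8 libraries, nor *Col6a1* clearly against *Col6a2* (49.0 ± 13.2; above in 6 of 8). *Col15a1* came next with 39.3 ± 12.9 and was above *Col5a2* (11.4 ± 3.76) in every library. *Col5a2*, *Col5a3* and *Col5a1*, the chains of the minor fibrillar collagen that starts fibrils, differed by less than their spread, at 10.9 to 11.4 on average. The least abundant member was *Col22a1* at 0.174 ± 0.0650. By class, the basement membrane chains held 45.3% of the collagen signal per kb in the control-tagged and 44.2% in the TK-/--tagged libraries, the fibrillar chains 31.5% and 32.7%, the beaded filament chains 14.1% and 14.2%, and the multiplexins 6.02% and 5.84%.

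**Figure D1:**
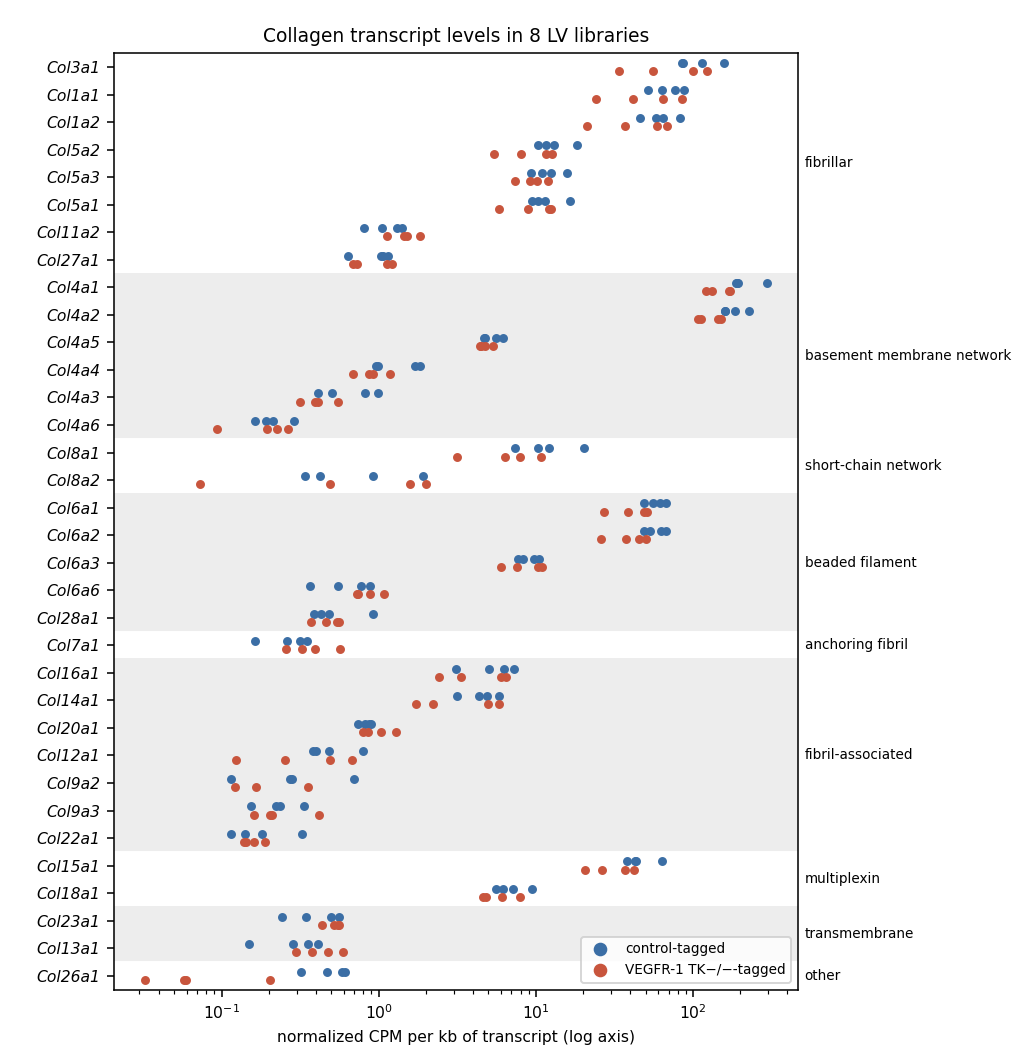
Each point is the level of a collagen gene in 1 library, in normalized CPM per kb of transcript on a log axis, with the 4 control-tagged libraries in blue and the 4 TK-/--tagged libraries in red and the genes grouped by class. The points of *Col4a1* and *Col4a2* start at 120.6 and 108.5 per kb, where only *Col3a1* and its highest value of 158.3 reach them, points of both groups overlap for all genes but *Col4a1*, *Col4a2* and *Col26a1*, and the library in which *Col9a2* had 0 counts has no point.

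The libraries did not carry the same amount of collagen within a group. Collagens took 0.491%, 0.773%, 0.442% and 0.453% of the counts in control-tagged replicates 1 to 4, and 0.498%, 0.318%, 0.243% and 0.467% in TK-/--tagged replicates 1 to 4. Control-tagged replicate 2 was the highest library for 20 of the 34 genes and TK-/--tagged replicate 3 the lowest for 20. Markers of activated fibroblasts (*Postn*, *Cthrc1*, *Cilp*, *Comp*, *Tnc*, *Ltbp2*, *Thbs4* and *Fn1*) had their highest and lowest sum in the same libraries, with a summed normalized CPM of 689, 773, 425 and 398 in the control-tagged and 529, 289, 148 and 654 in the TK-/--tagged libraries. All 8 were lowest in TK-/--tagged replicate 3, *Postn*, *Ltbp2* and *Fn1* were highest in control-tagged replicate 2, and the other 5 in control-tagged replicate 1. *Postn*, which encodes the matrix protein periostin, read 39.0 in TK-/--tagged replicate 3 and 104 to 251 in the other 3 libraries of that group. None of these 8 genes had an unadjusted p under 0.05 between the groups.

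The 8 fibroblast markers summed to 1533 to 1859 in the control-tagged and 1332.5 to 2043 in the TK-/--tagged libraries, the 6 endothelial markers to 1288 to 1617 and 1174 to 1303, the 8 markers of pericytes and smooth muscle to 1378 to 1963 and 992 to 1506, and the 6 cardiomyocyte markers to 44624 to 68494 and 57079 to 76780. At an unadjusted p under 0.05 (quasi-likelihood), 1 of 8 fibroblast, 3 of 6 endothelial and 3 of 8 pericyte or smooth muscle markers were lower in the TK-/--tagged libraries. At such a p, 1 of 6 cardiomyocyte markers was higher. Of all genes, 5.64% were lower and 3.32% higher at such a p. In the marker lists that follow, only *Csf1r* of leukocytes (log2 fold change -0.49) and *Acta1* of skeletal muscle had such a p, both lower. Leukocyte markers ranged from 108 to 145 and from 75.6 to 114, epicardial markers from 17.5 to 63.0 and from 18.3 to 61.9, valve and cartilage markers from 8.14 to 25.4 and from 3.24 to 25.9, atrial markers from 787 to 1310.2 and from 503 to 1431, and red blood cell markers from 309 to 766 and from 359 to 601. The adipocyte list rested on *Fabp4* alone. The atrial sum rested almost wholly on *Nppa* (784 to 1306 and 498 to 1425), with *Myl4* and *Myl7* at no more than 4.86 in any library. The sum of the skeletal muscle list lay at 7106 to 10621 and 4837 to 6262 without overlap, which rested on *Acta1*, the skeletal actin that stressed cardiomyocytes also express, at 3125 to 6958.5 against 1456 to 1854 (log2 fold change -1.51), while *Ckm*, *Tnnt3* and *Mylpf* overlapped. *Col2a1*, *Chad* and *Cnmd* of cartilage, *Sln* and *Bmp10* of the atrium, *Myh1* and *Myh4* of skeletal muscle and *Adipoq*, *Plin1*, *Cfd*, *Lep* and *Retn* of adipocytes did not pass the filter. No gene of these 12 lists was called by the quasi-likelihood test of edgeR (FDR 0.152 for *Acta1*), whereas the likelihood ratio test and DESeq2 called *Acta1* and *Kcnj8*, a pericyte marker (log2 fold change -0.65, FDR 0.0587 and 0.0716). In bulk tissue, fewer cells of a type and less RNA per cell cannot be told apart. The part of cell composition in the values below was not tested.

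**Figure D2:**
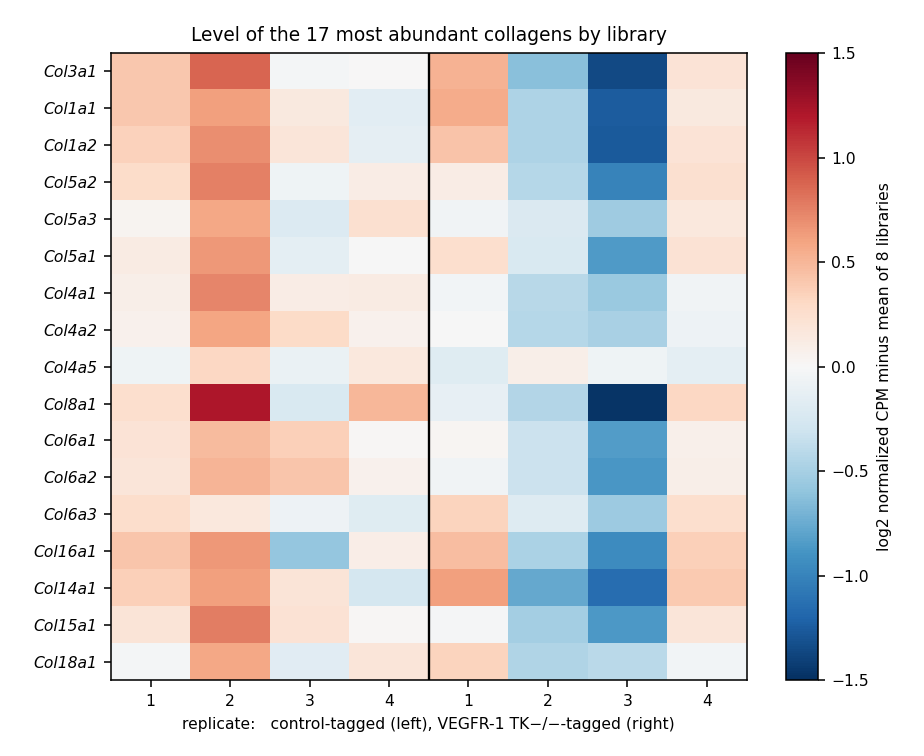
The map shows, for the 17 collagens with the highest level per kb, log2 normalized CPM in each library minus the mean of the 8 libraries, with control-tagged replicates 1 to 4 left of the line and TK-/--tagged replicates 1 to 4 right of it. Red is above and blue below the mean, control-tagged replicate 2 is the reddest column and TK-/--tagged replicates 2 and 3 are blue for nearly all genes.

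**Figure D3:**
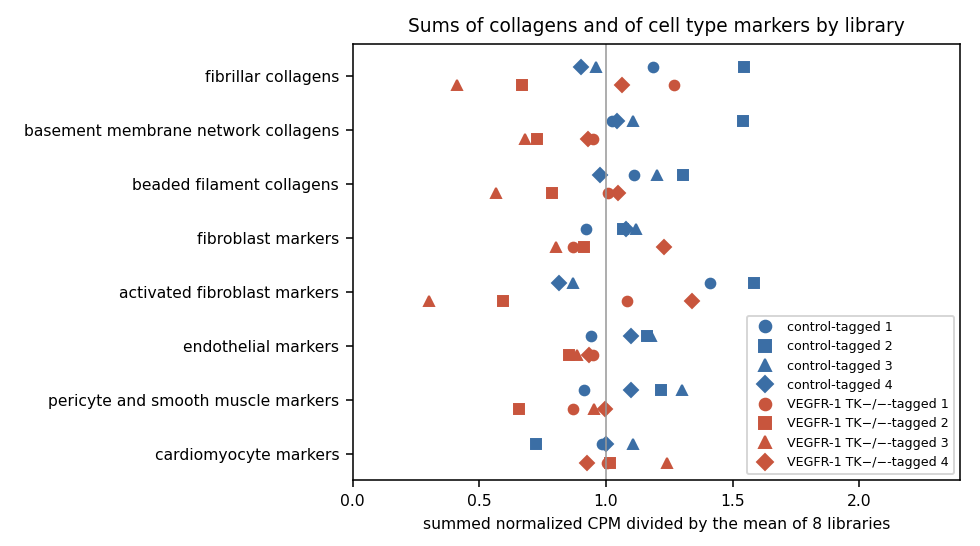
Summed normalized CPM of 3 collagen classes and of 5 marker lists in each library, divided by the mean of the 8 libraries, with blue symbols for the control-tagged and red symbols for the TK-/--tagged libraries and a symbol shape for each replicate. Fibrillar collagens run from 0.410 to 1.54 and activated fibroblast markers from 0.302 to 1.58. In both, TK-/--tagged replicate 3 is lowest and control-tagged replicate 2 highest. Fibroblast markers run from 0.802 to 1.23, also with TK-/--tagged replicate 3 lowest. The largest part of their sum is *Gsn*, which was lowest in TK-/--tagged replicate 1, whereas every other gene of that list was lowest in TK-/--tagged replicate 3.

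The comparison of the groups asks whether collagen RNA differed between hearts with and without VEGFR-1 kinase signaling under angII. No collagen gene passed the thresholds used for a call, an FDR under 0.1 (Benjamini-Hochberg over the 13542 genes) and a fold change of 1.5 or more in either direction in the quasi-likelihood test of edgeR. Of all genes tested, 0.00738% were called, which is *Flt1* alone. By the likelihood ratio test of edgeR, the test of the study's methods, 0.391% of all genes and 1 collagen gene, *Col26a1*, were called. By DESeq2, 0.236% of all genes and no collagen gene were called. DESeq2 gave no adjusted p to *Col4a6*, *Col7a1*, *Col9a2*, *Col9a3*, *Col13a1*, *Col22a1*, *Col23a1*, *Col26a1* and *Col28a1*, which it therefore could not call. Before adjustment, 9 of the 34 collagen genes (26.5%) had a p under 0.05 in the quasi-likelihood test, against 8.96% of all genes. All 9 were lower in the TK-/--tagged libraries, a direction in which 5.64% of all genes had such a p, and none was higher, where 3.32% of all genes were. The likelihood ratio test gave such a p to 9 collagen genes and to 9.14% of all genes. By the quasi-likelihood test they were *Col4a1*, *Col4a2*, *Col4a3*, *Col4a4*, *Col6a1*, *Col6a2*, *Col8a1*, *Col15a1* and *Col26a1*. Without TK-/--tagged replicate 2 the number was 5, and without control-tagged replicate 2 or TK-/--tagged replicate 3 it was 6. The share of all genes with such a p in those fits is not given here, so a change particular to collagens cannot be read from these numbers. 26 of the 34 genes (76.5%) had a lower fitted level in the TK-/--tagged libraries, as had 50.3% of all genes. The median log2 fold change was -0.29 over the 34 genes and -0.0012 over all genes. These shares describe the genes that passed the filter, share libraries and are not independent of each other. *Col26a1* passed it through the control-tagged libraries alone.

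**Figure D4:**
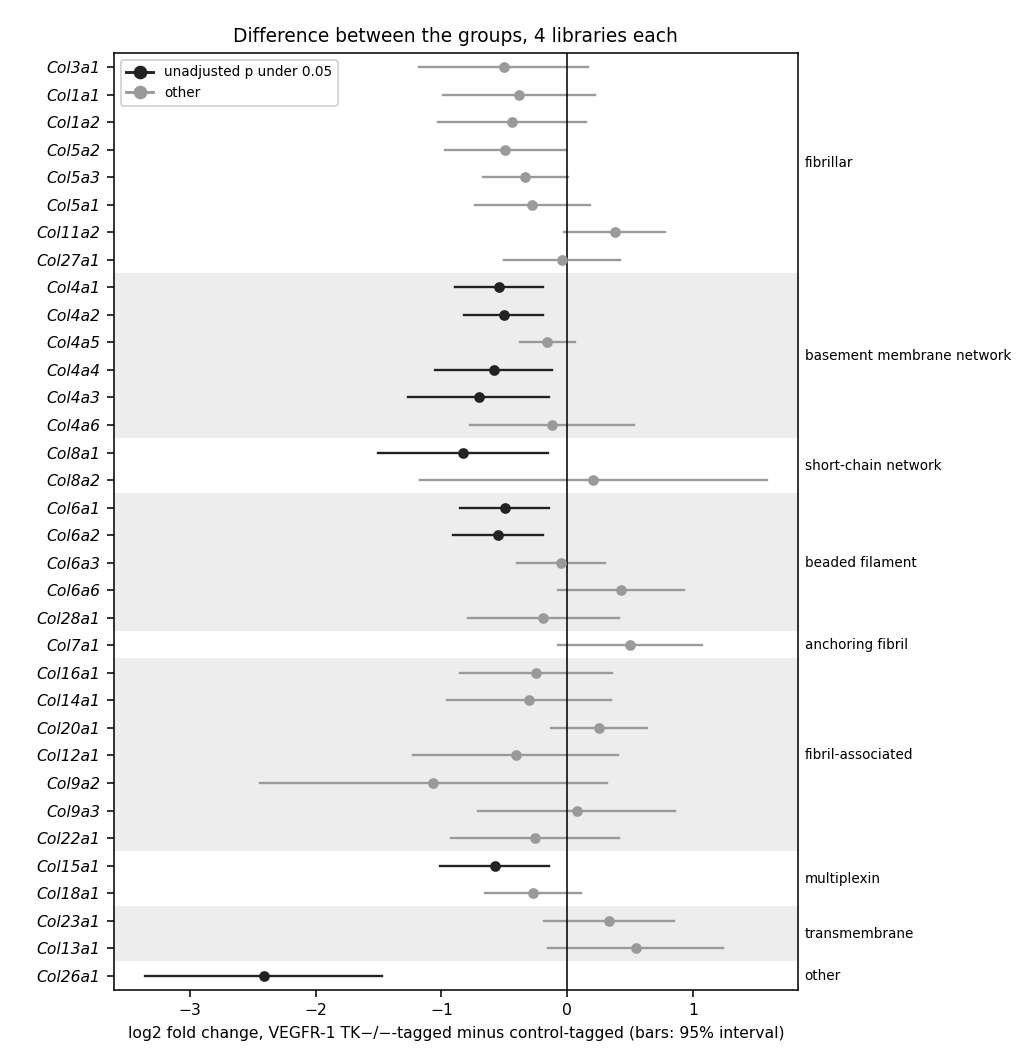
Log2 fold change of each of the 34 collagen genes, TK-/--tagged minus control-tagged (4 libraries each). Bars are 95% intervals from the SE of the edgeR fit and the normal distribution. Black marks an unadjusted p under 0.05 in the quasi-likelihood test. The bar of *Col5a2* (-0.97 to -0.012) misses 0, although its unadjusted p was 0.0684 in that test. *Col26a1* lies farthest to the left at -2.41, the chains of collagens I, III, IV and VI other than *Col4a5*, *Col4a6*, *Col6a3* and *Col6a6* lie between -0.70 and -0.39, and *Col13a1* lies farthest to the right at 0.54.

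Among the fibrillar chains, 7 of 8 had a lower mean fitted level in the TK-/--tagged libraries and none had an unadjusted p under 0.05. *Col1a1*, the major chain of collagen I, read 455, 524, 379.6 and 309 normalized CPM in control-tagged replicates 1 to 4 and 505, 248, 144 and 379.9 in TK-/--tagged replicates 1 to 4. TK-/--tagged replicate 1 was thus above 3 of the 4 control-tagged ones and replicates 2 and 3 were below all of them. The log2 fold change was -0.39 (95% interval -0.99 to 0.22, unadjusted p = 0.237, FDR 0.742, quasi-likelihood). *Col1a2*, the second chain of the same molecule, read 346, 439.7, 309 and 248 against 367, 197, 114 and 314 (log2 fold change -0.44, SE 0.30). *Col3a1*, which forms mixed fibrils with collagen I, read 638, 881, 473 and 481 against 688, 311, 188 and 555, with a log2 fold change of -0.51 (95% interval -1.18 to 0.17, unadjusted p = 0.167, FDR 0.692, quasi-likelihood). The intervals of *Col1a1* and *Col3a1* include both no difference and the difference measured for *Col4a1*.

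The difference of these chains rested on few libraries. Leaving out each library in turn moved the log2 fold change of *Col1a1* between -0.14 (without TK-/--tagged replicate 3) and -0.70 (without TK-/--tagged replicate 1), and that of *Col3a1* between -0.26 and -0.81 (the same replicates). The highest and lowest library of a group differed 3.505-fold for *Col1a1* and 3.66-fold for *Col3a1* in the TK-/--tagged group, and 1.70-fold and 1.86-fold in the control-tagged group. The range was wider in the TK-/--tagged group for 21 of the 34 collagen genes (61.8%) and for 37.0% of all genes tested.

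Among the minor fibrillar chains, *Col5a1* read 95.8, 138, 79.8 and 87.5 against 104.9, 75.2, 48.8 and 103 normalized CPM (log2 fold change -0.28, SE 0.23). *Col5a2* read 86.4, 120.5, 68.6 and 77 against 77.3, 53.3, 35.7 and 84.1 (log2 fold change -0.49, SE 0.25, FDR 0.590). The control-tagged and TK-/--tagged libraries overlapped for both. *Col5a3* averaged 74.4 ± 17.2 against 59.1 ± 11.7 (SD, n = 4 each). *Col11a2*, a chain of the fibrils of cartilage, averaged 6.18 ± 1.45 against 8.02 ± 1.56 and was the only fibrillar chain with a higher level in the TK-/--tagged group (log2 fold change 0.38, SE 0.20, FDR 0.615). *Col27a1* averaged 7.39 ± 1.74 against 7.16 ± 2.07. The summed fibrillar chains came to 1647 ± 419 and 1222 ± 554 normalized CPM, and the libraries overlapped.

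All 6 chains of collagen IV had a lower mean fitted level in the TK-/--tagged libraries, 4 of them with an unadjusted p under 0.05. *Col4a1* read 1245, 1949.5, 1268 and 1275 normalized CPM in the control-tagged and 1132, 878, 798 and 1126 in the TK-/--tagged libraries. *Col4a2*, its partner in the helix and in the genome, read 1031, 1475, 1196 and 1031 against 975, 727, 700.0 and 931. For both genes the lowest control-tagged library was above the highest TK-/--tagged library. Control-tagged replicate 2 was the highest library for both genes, and its *Col4a1* level stood apart from the other 3 control-tagged libraries. Apart from these 2 genes, the groups did not overlap for *Col26a1*, which passed the filter through the group in which it was high. Of all genes, 4.98% had groups without overlap, 2.53% with the TK-/--tagged libraries lower. The log2 fold change of *Col4a1* was -0.54 (SE 0.18, unadjusted p = 0.0105, FDR 0.464, quasi-likelihood) and -0.36 without control-tagged replicate 2. That of *Col4a2* was -0.51 (SE 0.16, unadjusted p = 0.00799, FDR 0.464). The exact 2-sided permutation test gave p = 0.0286 for both, the smallest value it can give with 4 libraries against 4. By DESeq2, the FDR was 0.161 for *Col4a1* and 0.141 for *Col4a2*, also above the threshold.

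*Col4a3* and *Col4a4*, which with *Col4a5* form the collagen IV of kidney filters and lungs and are minor in the heart, were far less abundant than *Col4a1* and lay on the same side. *Col4a3* read 3.52, 8.42, 4.30 and 7.04 against 3.49, 3.37, 2.69 and 4.70 normalized CPM (log2 fold change -0.70, unadjusted p = 0.0306, FDR 0.521, quasi-likelihood). *Col4a4* read 10.03, 18.6, 9.75 and 17.2 against 9.34, 6.92, 8.77 and 11.9 (log2 fold change -0.58, unadjusted p = 0.0300, FDR 0.521, quasi-likelihood). Control-tagged replicates 2 and 4 were the high libraries of both genes, and the groups overlapped. The head-to-head pair on chromosome X differed less: *Col4a5* averaged 34.6 ± 4.67 against 31.0 ± 2.66 (log2 fold change -0.16, SE 0.11) and *Col4a6* 1.42 ± 0.356 against 1.29 ± 0.485. Summed, the 6 chains came to 2322, 3493, 2510.0 and 2368.5 against 2150.1, 1651, 1542 and 2105 normalized CPM, without overlap of the groups, a log2 ratio of means of -0.52. It was -0.37 without control-tagged replicate 2.

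*Col8a1*, a chain of the short-chain network collagen VIII, had the lowest log2 fold change of the 17 most abundant collagen genes. It read 53.0, 103, 37.7 and 62.5 normalized CPM in the control-tagged and 40.6, 32.7, 16.04 and 54.8 in the TK-/--tagged libraries (log2 fold change -0.83, SE 0.35, unadjusted p = 0.0340, FDR 0.522, quasi-likelihood). The groups overlapped, and without control-tagged replicate 2 the value was -0.50. *Col8a2*, its partner chain, ran from 1.48 to 8.31 and from 0.316 to 8.61 normalized CPM (log2 fold change 0.21, SE 0.70), so that no difference was detectable. Its highest and lowest library differed 5.62-fold in the control-tagged and 27.2-fold in the TK-/--tagged group.

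In collagen VI, whose molecule holds 1 chain of each of *Col6a1*, *Col6a2* and a longer chain, *Col6a1* and *Col6a2* had an unadjusted p under 0.05 and *Col6a3* had not. The difference between the chains was not tested. *Col6a1* read 227, 275.5, 254 and 200.3 against 201, 158, 111 and 209 normalized CPM (log2 fold change -0.50, SE 0.18, unadjusted p = 0.0184, FDR 0.492, quasi-likelihood). *Col6a2* read 211, 264, 249 and 194 against 179.7, 149, 102 and 198 (log2 fold change -0.55, SE 0.18, unadjusted p = 0.0114, FDR 0.468, quasi-likelihood). In both, TK-/--tagged replicate 4, and in *Col6a1* also replicate 1, lay just above the lowest control-tagged library and below the other 3. *Col6a3* read 93.8, 87.5, 74.5 and 69.0 against 98.4, 68.3, 53.7 and 93.3, with a log2 fold change of -0.05 (SE 0.18) whose sign changed with the library left out. *Col6a6*, an alternative to *Col6a3*, averaged 4.55 ± 1.62 against 6.095 ± 1.204, and *Col28a1*, a related collagen, 2.35 ± 1.06 against 2.05 ± 0.362.

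Of the multiplexins, *Col15a1* had an unadjusted p under 0.05 and *Col18a1* had not. *Col15a1*, found in the basement membranes of muscle and capillaries, read 222, 331, 225 and 196 against 192, 136, 107 and 219.7 normalized CPM (log2 fold change -0.57, SE 0.22, unadjusted p = 0.0239, FDR 0.506, quasi-likelihood). *Col18a1*, whose end fragment is endostatin, read 34.7, 52.8, 31.3 and 40.0 against 44.4, 25.9, 26.8 and 34.3 (log2 fold change -0.27, SE 0.19, FDR 0.708). For *Col15a1* only TK-/--tagged replicate 4 was in the range of the control-tagged libraries.

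Of the 7 fibril-associated collagens, none had an unadjusted p under 0.05. *Col14a1*, which binds collagen I fibrils and limits their diameter, read 31.5, 37.7, 28.0 and 20.5 against 37.5, 14.4, 11.1 and 32.1 normalized CPM (log2 fold change -0.31, SE 0.33). *Col16a1* averaged 28.2 ± 9.34 against 23.8 ± 10.3, *Col12a1* 5.92 ± 2.20 against 4.44 ± 2.84, *Col20a1* 3.73 ± 0.328 against 4.44 ± 0.995, and *Col22a1*, a collagen of tissue junctions, 1.67 ± 0.819 against 1.39 ± 0.205. *Col9a2* and *Col9a3*, chains of a cartilage collagen, averaged 1.0 and 0.720 against 0.470 and 0.753. *Col9a2* had 0 counts in TK-/--tagged replicate 3, which allows up to 3 counts or 0.237 normalized CPM there, and at most 28 counts elsewhere. Its log2 fold change was -1.06 (SE 0.70, FDR 0.685). The ratio of the summed counts was 0.476, with an exact 95% interval of 0.279 to 0.789 for counting error alone, but the libraries of the groups overlapped. For *Col9a3* the log2 fold change was 0.075 (SE 0.40).

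Chains of anchoring fibrils and of transmembrane collagens lay on the other side. *Col7a1* of anchoring fibrils averaged 2.52 ± 0.741 against 3.58 ± 1.25 (log2 fold change 0.50, SE 0.29, FDR 0.639). *Col23a1* averaged 2.32 ± 0.802 against 2.92 ± 0.316. *Col13a1*, found at cell contacts such as the junction of nerve and muscle, read 0.898, 1.31, 0.471 and 1.12 against 1.87, 1.51, 0.948 and 1.196. It had the highest log2 fold change of all members (0.54, SE 0.36, FDR 0.680), on only 7 to 23 counts per library. None of the 3 had an unadjusted p under 0.05, and the groups overlapped for each.

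*Col26a1* (chromosome 5, 136741759 to 136883209, minus strand) passed the filter through 3 control-tagged libraries and no TK-/--tagged library, so that a lower TK-/--tagged level came with its selection and the values below describe it. It had the lowest log2 fold change of the collagen genes and the third lowest of the 13542 genes. Its counts were 17, 23, 13 and 20 in the control-tagged and 2, 1, 2 and 7 in the TK-/--tagged libraries, or 1.27, 1.67, 0.874 and 1.60 against 0.163, 0.0888, 0.158 and 0.558 normalized CPM. All control-tagged libraries were above all TK-/--tagged libraries, of which replicate 4 was the highest. The summed counts of 73 and 12 gave a ratio of 0.184 after scaling, with an exact 95% interval of 0.0908 to 0.341 that covers counting error only. The log2 fold change was -2.41 (SE 0.48, unadjusted p = 0.000334, FDR 0.442, quasi-likelihood), and the likelihood ratio test gave an FDR of 0.000692 and the quasi-likelihood test without a filter one of 0.0718. DESeq2 gave it no adjusted p. Over the 15 alternatives in which it was tested the value lay between -3.20 and -2.17, and filterByExpr removed it. *Col26a1* lies 10678394 bases from *Flt1* on the same chromosome. Whether these counts follow the alleles of that chromosome stretch was not tested.

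Some chains kept nearly constant proportions while their levels varied. Per kb, *Col1a1* was 1.08 to 1.24 times *Col1a2*, *Col4a1* 1.03 to 1.29 times *Col4a2* and *Col6a1* 0.982 to 1.08 times *Col6a2* over the 8 libraries, and *Col1a1* was 0.559 to 0.754 times *Col3a1*. These ranges overlapped between the groups. In 2 of the 7 ratios examined the groups did not overlap. *Col6a3* was 0.188, 0.145, 0.134 and 0.157 times *Col6a1* in the control-tagged and 0.223, 0.197, 0.220 and 0.203 times in the TK-/--tagged libraries. *Col5a1* was 0.874, 0.905, 0.916 and 0.895 times *Col5a2* in the control-tagged and 1.07, 1.11, 1.08 and 0.962 times in the TK-/--tagged libraries. *Col8a1* ranged from 4.99 to 43.0 times *Col8a2*, with the highest value in TK-/--tagged replicate 3. The ratios were not tested, and how often ratios of other genes are without overlap was not determined.

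**Figure D5:**
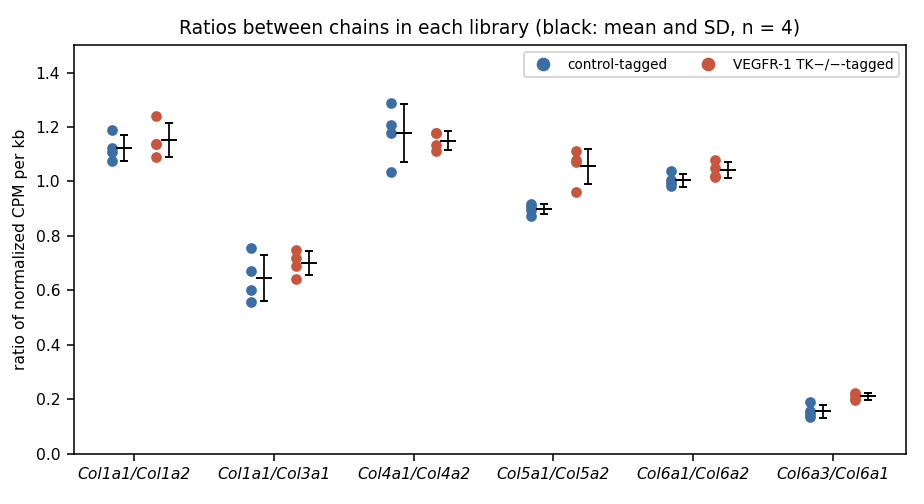
Ratios of normalized CPM per kb between 6 pairs of collagen chains in each library, with control-tagged libraries in blue, TK-/--tagged libraries in red, and the mean and SD of each group in black (n = 4). The ratios of *Col1a1* to *Col1a2* and of *Col6a1* to *Col6a2* lie close to 1 in all libraries, and the points of the groups are apart for *Col5a1* to *Col5a2* and *Col6a3* to *Col6a1*.

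Collagen chains need enzymes and chaperones before they leave the cell and are trimmed and cross-linked outside it. Of 36 such genes, 34 were tested, none was called, and 10 had an unadjusted p under 0.05 in the quasi-likelihood test, 9 lower and 1 (*P3h4*, log2 fold change 0.32) higher in the TK-/--tagged libraries, where 8.96% of all genes had such a p, 5.64% lower and 3.32% higher. Without TK-/--tagged replicate 2 the number was 4, and without control-tagged replicate 2 or TK-/--tagged replicate 3 it was 6, with the share of all genes in those fits not given. The lowest p belonged to *Pcolce2*, an enhancer of the trimming of procollagen, with 29.1 ± 4.47 against 19.9 ± 4.25 normalized CPM (SD, n = 4 each), a log2 fold change of -0.55 and an FDR of 0.448. The cross-linking enzymes *Loxl1* (144.9 ± 33.8 against 93.9 ± 23.1, log2 fold change -0.63, FDR 0.453) and *Loxl2* (35.4 ± 12.2 against 21.1 ± 6.503, log2 fold change -0.75, FDR 0.464) followed. *Creb3l1*, a transcription factor that promotes collagen secretion, had a log2 fold change of -0.47, and *Serpinh1*, the collagen chaperone HSP47, of -0.38. *Sparc*, a collagen-binding matrix protein, averaged 1220.5 ± 238 against 872 ± 205 (log2 fold change -0.48). *Colgalt1* and *Plod3*, which glycosylate and hydroxylate the chains, had log2 fold changes of -0.29 and -0.20. The groups did not overlap for 2 of the 34 genes tested, *Sparc* and *Plod3*, and for 4.98% of all genes.

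Of 18 genes for collagen receptors and turnover, 15 were tested and none was called. An unadjusted p under 0.05 was found for 2, both lower in the TK-/--tagged libraries, a number near the 8.96% of all genes. *Fap*, a protease of activated fibroblasts, averaged 6.74 ± 0.498 against 4.59 ± 0.972 normalized CPM (log2 fold change -0.55, FDR 0.464), and *Mrc2*, the receptor that takes up collagen fragments, 55.2 ± 9.51 against 38.7 ± 9.95 (log2 fold change -0.51, FDR 0.476). The number was 3 without control-tagged replicate 1, 4 without control-tagged replicate 3 or TK-/--tagged replicate 4, and 5 without TK-/--tagged replicate 1. For those fits the share of all genes is not given. The groups did not overlap for 1 of the 15 genes tested, *Fap*, and for 4.98% of all genes. *Itga2*, *Mmp8* and *Mmp13* did not pass the filter.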

How the data were processed

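The authors sequenced RNA of mouse LVs (8 libraries), used Trim Galore 0.4.4 for trimming (Phred 30), aligned the reads to GRCm38 with STAR 2.5.4b (mismatch share 0.04, 10 alignments per read) and counted them per gene of GENCODE M16 with featureCounts. The deposited values are whole-number counts, not normalized. The labels name depletion of ribosomal RNA and the paper poly-A selection. How strand and reads with several alignments were counted is not given in the sources used here, and would touch antisense genes.

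Libraries were grouped by genotype tags, with the titles as an alternative. The labels do not tie libraries to animals, so p-values measure the spread between these libraries. Counts per library were 11449137 to 16239670, so that a CPM of 1 is 11 to 16 reads. Intervals and the limit of 3 counts for a count of 0 cover counting error only. Libraries within a group differed beyond sampling noise (chi-square over its degrees of freedom 6.77 to 49.9), so that no library was counted as a repeat of another. Repeat libraries of one animal would not be seen in this way.

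Genes that reached a CPM of 1 in 2 or more libraries were tested with the quasi-likelihood test of edgeR 4.0.16 (TMM, no covariates) in R 4.3.3, with Benjamini-Hochberg adjustment over all 13542 genes. Intervals of log2 fold changes (95%) use the SE and the normal distribution. Single genes were also compared by exact permutation over the 35 splits into 4 and 4. Transcript lengths, coordinates and coding sequences are from GENCODE M21, in which all 44 collagen genes were found, and the length is that of the longest complete coding transcript. Alternatives included DESeq2 1.42.0, the likelihood ratio test, robust dispersions, RLE factors, total counts, no filter, filterByExpr, other thresholds, each library left out and the replicate number as a block. The fits were tested on simulated data. Figures were drawn in Python 3.11.15 with matplotlib.

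The collagen genes, classes and lists were chosen with earlier results of these data known. Named with values in every library are the main chains, every collagen gene with an unadjusted p under 0.05, and those with the highest and lowest log2 fold change. Of the biosynthesis and turnover lists, at most 8 each are described by smallest p. *P3h4* is named besides, as the only biosynthesis gene that was higher at an unadjusted p under 0.05. Comparisons of the ranges of libraries within groups were added after the values were seen.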

Additional observations from a re-analysis of the deposited data

Results flagged for a closer look

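Of 98 groups of 4 libraries examined for a library far from the other 3, 5 held one, where chance gives about 1 in 20. Control-tagged replicate 2 was far above the others for *Col4a1* (1949.5 normalized CPM against 1245 to 1275), for the summed chains of the basement membrane (3493 against 2322 to 2510.0) and for the summed multiplexins (383 against 236 to 257). *Col28a1* was highest in control-tagged replicate 4, at 3.92 normalized CPM against 1.65 to 2.03 in the other control-tagged libraries. *Col26a1* was highest in TK-/--tagged replicate 4, at 0.558 normalized CPM against 0.0888 to 0.163 in the other libraries of that group, which corresponds to 7 counts against 1 to 2.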

How the results depend on the processing

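The number of genes called was 1 in the quasi-likelihood test, 53 in the likelihood ratio test, 32 in DESeq2, 23 without a filter on low counts and 1 to 3 when a library was left out. The number of collagen genes called was 0, and 1 (*Col26a1*) in the likelihood ratio test and without a filter. When a library was left out, collagen genes with an unadjusted p under 0.05 numbered 5 to 12, biosynthesis genes 4 to 11 and genes of binding and turnover 2 to 5. How many of all genes had such a p in each of these fits is not given, so these numbers have no background to be read against. Grouped by titles, the median log2 fold change of the collagen genes was 0.29 and 8 genes were lower, and each sign reverses by construction. Fold changes near 0 changed sign when a library was left out: over the libraries left out, *Col9a3* ran from -0.093 to 0.24, *Col4a6* from -0.30 to 0.096, *Col27a1* from -0.20 to 0.078, *Col6a3* from -0.18 to 0.092, *Col8a2* from -0.32 to 0.88, *Col28a1* from -0.33 to 0.16 and *Col22a1* from -0.44 to 0.13. No other sign or call of a collagen gene changed in the alternatives run on the tags. The causes were not tested. The filter filterByExpr kept 31 of the 34 collagen genes.

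Same-numbered libraries were not taken as pairs: the correlations of their deviations were -0.029, 0.029, 0.343 and -0.056 over all genes and 0.46, 0.103, 0.404 and -0.325 over the collagen genes, and thus not above 0.1 in every pair. With the replicate block, 1 gene and no collagen gene was called. In that fit 13 collagen genes had an unadjusted p under 0.05, with the share of all genes not given, and the median log2 fold change of the collagen genes was -0.31. Counts limit *Col26a1*, *Col9a2*, *Col9a3*, *Col13a1* and *Col4a6*, which had at most 28 counts in a library.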
